A study of Homo sapiens with 4 samples.

Results

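The lncRNA table of this study held 297 rows that carry only an assembler-style name beginning with TCONS_, of 104786 rows in all. They were chosen by name, from 299 such rows, leaving out TCONS_00021150 and TCONS_00001933. These 2 rows had at least 1000 FPKM in each library, and the ground for leaving them out is not given here. Measured values may therefore have entered that step. RNA was sequenced from MDA-MB-231-P3 and from its parent MDA-MB-231, a cell line from a human breast cancer of the triple-negative type. The P3 subline was obtained, per the labels' protocols, by 3 rounds in which cells were injected into the tail vein of mice, collected from the lung tumours they formed and expanded in culture. The labels name no agent given to either line. Each line had 2 libraries, called replicate 1 and replicate 2 below. The labels did not say whether these came from separate cultures, so the p-values rest on a spread between libraries that may be technical only. The P3 line is 1 selected population, and cells of the mouse host were not looked for.

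Long noncoding RNAs are transcripts without a recognised open reading frame. Some act in the nucleus on chromatin or splicing, others bind proteins or microRNAs in the cytoplasm, and most have no known function. Names starting with TCONS_ are given by programs of the Cufflinks family to transcripts assembled from RNA sequencing reads, in numbering order within 1 assembly. Such a name says nothing of the gene, its strand or its neighbours, unlike LINC names for intergenic RNAs, -AS names for antisense RNAs or lnc-GENE names taken from a neighbouring gene. The assembly behind these names is not given in the sources used here, and therefore no position, sequence or role was assigned to any of the 297.

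The numbers in the names ran from 2 to 33859. In RefSeq, 2 of the 297 names are listed as synonyms: TCONS_00000366 of LINC01221 and TCONS_00021682 of LINC01040. TCONS_00021682 had 12.1 and 9.02 FPKM in the P3 libraries, against 25.9 and 18.1 FPKM in the parental libraries. FPKM is the number of fragments scaled by transcript length and by the mapped fragments of the library, which puts rows on 1 scale. The transcript lengths of the members were not known here, and their part in differences of level between rows was not tested. The same table held 2 rows under LINC01040 itself, and both were listed at 0 in all 4 libraries. TCONS_00000366 had 1.48 and 5.34 FPKM in the P3 libraries, against 1.09 and 1.63 FPKM in the parental ones, and the 1 row under LINC01221 was likewise listed at 0 in all 4. Numbers of this kind can recur in different assemblies, and the RefSeq names are therefore not used for these 2 rows.

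The libraries differed in the summed FPKM of all rows, which was 351135 and 372689 in the P3 libraries and 460282 and 500086 in the parental libraries. Read depth was unknown, since the deposited values were FPKM. Of 15 protein-coding marker genes of the line and of lung, stromal and blood cells, such as VIM, EPCAM and PTPRC, 0 had a row in this lncRNA table, so the identity of the cells could not be checked here.

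TCONS rows were measured at higher levels than rows with other names in each of the 4 libraries. Values of at least 0.5 FPKM were reached by 55.9% and 54.5% of the 297 members in the P3 libraries and by 55.2% and 52.2% in the parental libraries. Among the 104487 rows with other names the shares were 8.15% and 7.82% in the P3 libraries and 7.38% and 7.18% in the parental libraries. The median member stood at 0.956 and 0.791 FPKM in the P3 libraries, against 0.928 and 0.706 FPKM in the parental libraries. A mean of at least 0.5 FPKM over the 4 libraries was reached by 175 members, 58.9% of them, and by 7.90% of rows with other names.

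Named genes often hold several isoform rows, which divide the reads of the gene. With the isoforms of each of 46603 named genes summed, 13.4% of genes reached the same mean. Of 33480 named genes with a single row, 9.67% reached it. How the authors chose the TCONS rows for their annotation is not given in the sources used here, and its part in the high levels was not tested. Among rows that did reach the mean of 0.5 FPKM, the median of the 4-library means was 6.19 FPKM for members and 1.20 FPKM for rows with other names.

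**Figure D1:**
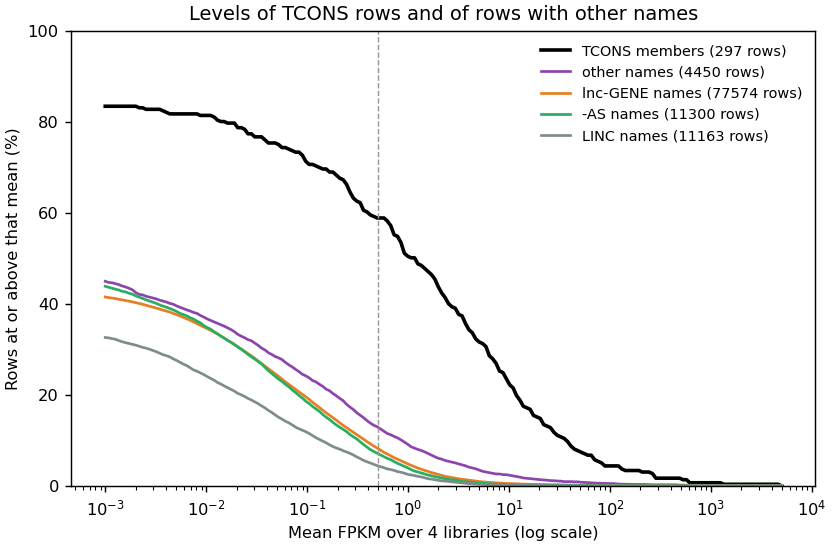
Percent of rows (vertical axis) whose mean FPKM over the 4 libraries is at or above the value on the horizontal axis (log scale), for the 297 TCONS members and 4 name classes; the dashed line marks 0.5 FPKM. At 0.5 FPKM the TCONS line stands at 58.9% of rows, above the 4 other lines.

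Levels of the members ranged widely. By their mean over the 4 libraries, 2 members lay at 1000 FPKM or more, 11 between 100 and 1000, 53 between 10 and 100, 84 between 1 and 10, and 25 between 0.5 and 1 FPKM. The other 122 had a mean below 0.5 FPKM and were not tested. The lowest mean among tested members was 0.589 FPKM and the highest among those not tested was 0.472 FPKM. Of the 122, 104 were below 0.5 FPKM in all 4 libraries and 18 reached 0.5 FPKM in at least 1. Of the 100 rows of highest mean in the table, 11 were members.

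Zeros were rarer among members than in the rest of the table. An FPKM above 0 was listed for 271 and 270 members in the P3 libraries, against 264 and 265 in the parental libraries. The shares averaged 91.1% ± 0.24 in P3 and 89.1% ± 0.24 in the parent (SD, n = 2 each). The lines did not overlap, and the exact permutation test gave a two-sided p of 0.333, the smallest that 2 against 2 libraries allow. For rows with other names the shares were 54.0% ± 1.09 in P3 and 49.2% ± 0.97 in the parent (SD, n = 2 each), also with a two-sided exact p of 0.333. A listed 0 need not mean that no read was present, and values far below 1 fragment occur: 44 to 56 members per library were listed above 0 and below 0.001 FPKM.

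Across the 4 libraries, 259 members were above 0 in all 4, and 21 were listed at 0 in all 4. The remaining 17 were at 0 in 1 library (4 members), 2 libraries (9 members) or 3 libraries (4 members). At 0.01 FPKM or less in all 4 libraries were 51 members. With 0.5 FPKM as the limit, 132 members reached it in all 4 libraries. Both P3 libraries and neither parental library reached it for 3 members, and both parental libraries and neither P3 library for 4. This pattern was not counted in rows with other names, so these counts cannot be set beside the rest of the table.

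Values of these 7 members are given because of this pattern. TCONS_00017847 had 1.22 and 0.887 FPKM in the P3 libraries, against 0.212 and 0.241 FPKM in the parental libraries. TCONS_00033027 had 0.551 and 0.667 FPKM in P3, against 0.389 and 0.0832 FPKM in the parent, and the third of this kind, TCONS_00024522, is described below. In the opposite direction, TCONS_00033752 had 0.0653 and 0.219 FPKM in P3, against 0.822 and 1.67 FPKM in the parent. TCONS_00001274, TCONS_00015112 and TCONS_00030611 likewise stayed below 0.5 FPKM in P3 and reached 0.764 to 2.08 FPKM in the parent.

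The members together made up 1.75% and 2.74% of the summed FPKM of the P3 libraries and 1.87% and 4.22% of that of the parental libraries. The 2 TCONS rows left out held more than all members together, 3.99% and 4.88% in the P3 libraries and 3.66% and 15.1% in the parental libraries. The members' share was 2.24% ± 0.70 in P3 and 3.05% ± 1.66 in the parent (SD, n = 2 each). The lines overlapped (two-sided exact permutation p = 0.667), and the high share of MDA-MB-231 replicate 2 carried the difference: without that library, the P3 mean was 0.37 percentage points above the parent instead of 0.80 below it. A single member, TCONS_00021140, held 31.7% and 34.5% of the members' sum in the P3 libraries and 31.5% and 51.7% in the parental libraries. Without the 3 most abundant members the share of the library total was 1.16% ± 0.06 in P3 and 1.12% ± 0.15 in the parent (SD, n = 2 each), again with overlapping lines.

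The most abundant members varied as much within a line as between the lines. TCONS_00021140 ranked 15th of all rows by mean and had 1944 and 3517 FPKM in the P3 libraries, against 2716 and 10912 FPKM in the parental libraries. TCONS_00020862 had 212 and 1768 FPKM in P3, against 923 and 2380 FPKM in the parent. TCONS_00021148 had 68.9 and 432 FPKM in P3, against 301 and 1659 FPKM in the parent. The lines overlapped in all 3, and MDA-MB-231 replicate 2 was the highest library of each. The log2 difference of TCONS_00021140 was -1.06 (SE 0.81, limma adjusted p = 0.598) and -0.055 without that library.

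Of the 8 most abundant members, 7 were highest in MDA-MB-231 replicate 2 and 6 were lowest in MDA-MB-231-P3 replicate 1. TCONS_00021139 was part of this, with 90.9 and 218 FPKM in P3, against 97.2 and 716 FPKM in the parent. TCONS_00021125 had 131 and 235 FPKM in P3, against 287 and 474 FPKM in the parent, without overlap. MDA-MB-231 replicate 2 thus set much of the parental mean of these rows, and what set that library apart was not tested. Among the 8, 4 carry numbers from 21125 to 21148.

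Others among the 8 were steadier. TCONS_00026887 had 434 and 616 FPKM in P3, against 640 and 691 FPKM in the parent, and its log2 difference was -0.36 (SE 0.34, limma adjusted p = 0.644). TCONS_00010231 had 468 and 620 FPKM in P3, against 405 and 574 FPKM in the parent, with interleaved libraries. TCONS_00000002 had 267 and 278 FPKM in P3, between the 147 and 377 FPKM of the parental libraries.

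The most even member of at least 5 FPKM was TCONS_00000004, at 116 and 127 FPKM in P3 and 127 and 125 FPKM in the parent. Its highest library was 1.09 times its lowest, and its log2 difference was -0.05 (SE 0.29, limma adjusted p = 0.942). TCONS_00014578 followed with 7.79 and 7.10 FPKM in P3 against 8.27 and 7.97 FPKM in the parent. TCONS_00028733 had 6.13 and 5.74 FPKM in P3 against 6.71 and 6.30 FPKM in the parent. In both, the P3 libraries lay below the parental ones by a margin smaller than the standard error of the fit, 0.28 on the log2 scale for each.

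**Figure D2:**
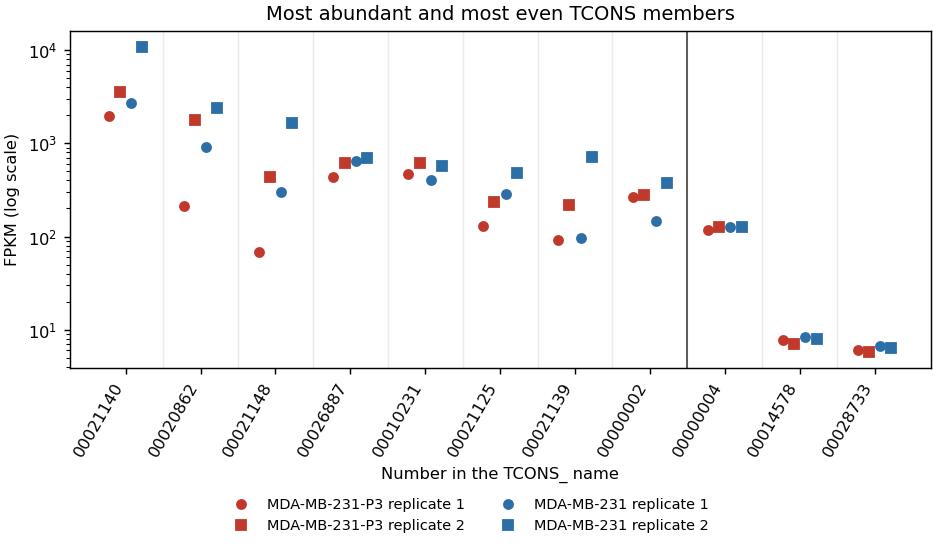
FPKM (log scale) of the 8 most abundant TCONS members, left of the dark line, and the 3 most even ones of at least 5 FPKM, right of it; red marks are MDA-MB-231-P3 and blue marks MDA-MB-231, circles replicate 1 and squares replicate 2. The blue square is the top mark in 7 of the 8 abundant members, and the 4 marks nearly coincide for TCONS_00000004.

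Over all 175 tested members, 97 stayed within 3-fold between their highest and lowest library, 55.4% against 42.4% of tested rows with other names. More than 10-fold separated the highest and lowest library in 35 members, 20% against 29.4%. At like levels the gap was smaller: at a mean of 10 to 100 FPKM, 66.0% of members and 62.9% of rows with other names stayed within 3-fold, and at 1 to 10 FPKM, 58.3% and 48.6%. Replicates of P3 differed by a median of 0.40 on the log2(FPKM + 0.5) scale and those of the parent by 0.48, against 0.43 and 0.51 for rows with other names.

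The comparison of P3 with its parent asked which rows differ between the lung-selected subline and the line it came from. No member passed the test: limma on log2(FPKM + 0.5), adjusted by the Benjamini-Hochberg method over all 8432 tested rows, called 0 of the 175 members (0% of all tested rows were called), with a smallest adjusted p of 0.258. An unadjusted p under 0.05 was reached by 29 members, 16.6% of those tested, where the share over all tested rows was 13.3%. Of these, 11 had higher values in P3 (background 7.87%) and 18 lower values (background 5.46%). After centring on the median log ratio, 7 members had higher and 22 lower values at this limit, and all tested rows were split into 535 higher and 553 lower instead of 664 and 460.

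The values of the members leaned towards lower levels in P3, and those of the table as a whole did not. In bulk RNA, fewer cells with a transcript and less of it per cell cannot be told apart. Both P3 libraries lay below both parental libraries for 65 members, 37.1% of those tested, where 20.6% of all tested rows did so. Both lay above for 36 members, 20.6%, where 27.2% of all tested rows did so. In either direction the lines were separate for 101 members, 57.7% against 47.8%. These counts go by order alone, also among values near 0. TCONS_00027566 counts among the 65 with 1.75e-06 FPKM in MDA-MB-231 replicate 2, above 1.52e-15 and 2.22e-10 FPKM in P3. The median log2 difference was -0.18 for the 175 members and 0.09 for all tested rows, and the quartiles of the members were -0.68 and 0.53. With quantile normalization, 65 members were again below and 36 above, and all tested rows had 2036 below and 1964 above.

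**Figure D3:**
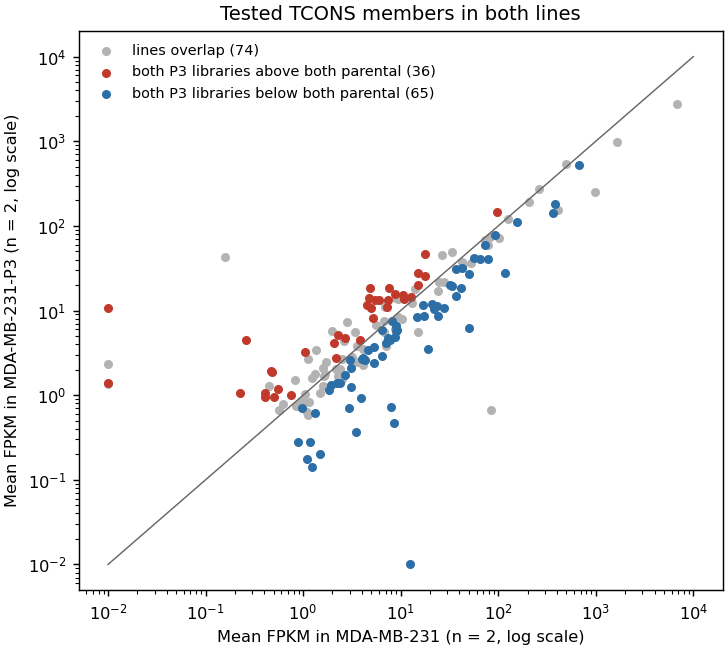
Mean FPKM in MDA-MB-231-P3 (vertical) against mean FPKM in MDA-MB-231 (horizontal), both on log scales and over 2 libraries, for the 175 tested TCONS members; means below 0.01 are drawn at 0.01 and the line marks equal levels. Blue marks (65 members with both P3 libraries below both parental ones) outnumber red marks (36 with both above), and 74 grey marks have overlapping lines.

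Members were also set beside rows of like level, since the sign of the difference moved with level. At a mean of 0.5 to 1 FPKM, 14 of 25 members had a negative log2 difference (56.0%), with a median of -0.08 against 0.12 for rows with other names. At 1 to 10 FPKM, 48 of 84 members were negative (57.1%), with a median of -0.12 against 0.08. At 10 to 100 FPKM, 33 of 53 members were negative (62.3%), with a median of -0.29 against -0.05. At 100 to 1000 FPKM, 8 of 11 members were negative. Among rows with other names the negative share was 43.3% at 0.5 to 1 FPKM, 46.4% at 1 to 10, 51.8% at 10 to 100 and 65.3% at 100 to 1000 FPKM.

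Beside the median log2 difference of -0.18 for members, tested -AS rows had -0.07 and rows outside the named kinds -0.10, while LINC rows stood at 0.08 and lnc-GENE rows at 0.12. Both P3 libraries lay below both parental ones for 37.1% of members, against 25.4% of -AS rows, 26.3% of rows outside the named kinds, 23.3% of LINC rows and 18.9% of lnc-GENE rows. At a mean of 10 to 100 FPKM, where members had a median of -0.29 and 43.4% with both P3 libraries below, -AS rows had -0.44 and 47.8%, and rows outside the named kinds had -0.32 and 41.0%. At 1 to 10 FPKM, members had -0.12 and 36.9%, -AS rows -0.09 and 25.3%, and rows outside the named kinds -0.06 and 24.7%. The -AS class took every row with -AS in its name that did not start with LINC. It may thus hold lnc-GENE rows whose neighbouring gene has a name starting with AS. The rows of a class share their libraries and their normalization, and no test of the difference between classes was made.

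A log2 difference of 1 or more was reached by 25 members towards higher values in P3, 14.3% of those tested (background 14.4%), and by 29 towards lower values, 16.6% (background 10.6%). The differences ran from -3.50 to 3.41, and both ends came from rows dominated by 1 library. TCONS_00018397, at the lower end, had 0.0638 and 1.27 FPKM in P3 and 0.249 FPKM in MDA-MB-231 replicate 1, but 170 FPKM in replicate 2. TCONS_00019380, at the upper end, had 84.8 FPKM in MDA-MB-231-P3 replicate 1, 0.0421 FPKM in replicate 2 and 5.23e-05 and 0.314 FPKM in the parental libraries. In 6 tested members the highest library was at least 20 times the next, 4 of them with the peak in MDA-MB-231-P3 replicate 1.

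Among members with higher values in P3, the smallest p belonged to TCONS_00024799. It had 19.4 and 17.2 FPKM in the P3 libraries, against 5.76 and 3.96 FPKM in the parental libraries. The means of 18.3 ± 1.52 and 4.86 ± 1.27 FPKM (SD, n = 2 each) gave a 3.76-fold higher level in P3. On the log2 scale the difference was 1.83 (SE 0.33, limma adjusted p = 0.258). TCONS_00024796 was similar in level, at 18.4 and 18.2 FPKM in P3 against 9.22 and 5.99 FPKM in the parent (log2 difference 1.24, SE 0.34, limma adjusted p = 0.328).

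TCONS_00024522 was low in the parent, with 2.60 and 6.25 FPKM in P3, against 0.484 and 0.0328 FPKM in the parent (log2 difference 2.66, SE 0.56, limma adjusted p = 0.308). TCONS_00009401 had 3.90 and 2.54 FPKM in P3, against 0.873 and 1.20 FPKM in the parent. TCONS_00027971 had nearly equal replicates, 5.25 and 5.06 FPKM in P3 against 2.47 and 2.05 FPKM in the parent, and was 2.28-fold higher in P3. These 5 members kept the lines separate, and none passed the adjusted threshold.

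The 5 largest positive differences without overlap included TCONS_00024522 and TCONS_00024799, and the other 3 had uneven replicates in at least 1 line. TCONS_00001945 had 21.0 and 0.258 FPKM in P3, against 0.00558 and 8.2e-05 FPKM in the parent, and its log2 difference of 3.01 was 0.59 when MDA-MB-231-P3 replicate 1 was left out. TCONS_00000009 had 50.4 and 42.6 FPKM in P3, against 6.69 and 29.2 FPKM in the parent. TCONS_00019064 had 8.95 and 19.4 FPKM in P3, against 1.88 and 7.52 FPKM in the parent. TCONS_00000009 had a log2 difference of 1.68 (SE 0.76), which was 0.66 without MDA-MB-231 replicate 1 and 2.70 without its replicate 2. For TCONS_00019064 it was 1.65 (SE 0.76), and 0.77 and 2.53 without the same libraries.

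Among members with lower values in P3, TCONS_00000284 had the smallest p. It had 0.777 and 0.615 FPKM in the P3 libraries, against 2.54 and 3.38 FPKM in the parental libraries. The means were 0.696 ± 0.115 FPKM in P3 and 2.96 ± 0.595 FPKM in the parent (SD, n = 2 each), and the log2 difference was -1.53 (SE 0.30, limma adjusted p = 0.294). TCONS_00023158 had 0.956 and 0.882 FPKM in P3, against 2.90 and 4.96 FPKM in the parent (log2 difference -1.60, SE 0.36, limma adjusted p = 0.308).

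TCONS_00026839 stood furthest apart of the 5 lower members of smallest p, with 2.36 and 4.72 FPKM in P3, against 24.7 and 13.1 FPKM in the parent. Its log2 difference was -2.26 (SE 0.51, limma adjusted p = 0.308), a 5.34-fold lower mean in P3. TCONS_00014802 had 14.7 and 15.1 FPKM in P3, against 43.7 and 30.5 FPKM in the parent. TCONS_00024677 had 1.30 and 1.18 FPKM in P3, against 2.99 and 3.26 FPKM in the parent. The replicates of these last members lay close together beside the distance between the lines, and their limma adjusted p-values were 0.325 and 0.323.

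**Figure D4:**
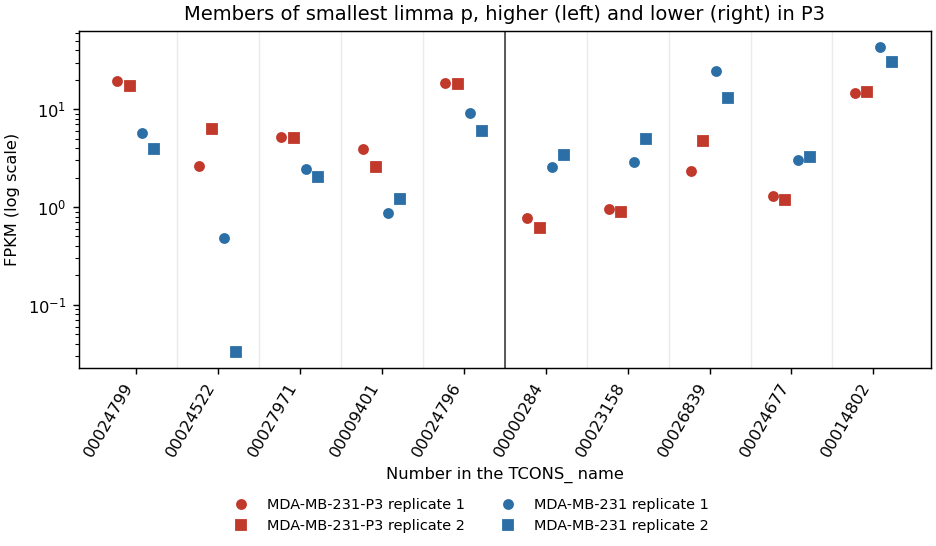
FPKM (log scale) in the 4 libraries of the 5 TCONS members of smallest limma p with higher values in MDA-MB-231-P3, left of the dark line, and the 5 with lower values, right of it; red marks are MDA-MB-231-P3 and blue marks MDA-MB-231. Red and blue marks do not overlap in any of the 10 members, and the smallest adjusted p among them was 0.258.

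The largest negative differences without overlap were again uneven. TCONS_00025840 had 0.929 and 0.0011 FPKM in P3, against 2.69 and 14.4 FPKM in the parent. TCONS_00021141 had 4.45 and 7.94 FPKM in P3, against 83.9 and 16.6 FPKM in the parent. TCONS_00021147 had 7.89 and 48.2 FPKM in P3, against 78.8 and 153 FPKM in the parent. TCONS_00019378 had 1.44 and 0.000277 FPKM in P3, against 14.3 and 1.67 FPKM in the parent. The log2 differences of these 4 were between -3.02 and -2.45, and their limma adjusted p-values were between 0.348 and 0.455. Each depended on single libraries. Without MDA-MB-231 replicate 1, TCONS_00025840 was at -4.13, TCONS_00021141 at -1.40 and TCONS_00019378 at -1.14. Without MDA-MB-231 replicate 2 they were at -1.91, -3.71 and -3.91. TCONS_00019378 was also at -1.55 without MDA-MB-231-P3 replicate 2, and TCONS_00021147 ran from -3.72 without that library to -1.18 without MDA-MB-231-P3 replicate 1. TCONS_00027566 is described with its neighbours.

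Transcripts that lie side by side in an assembly usually get neighbouring numbers, so rows with close numbers may be isoforms of 1 locus or nearby loci, which these files do not show. By a gap of at most 2 between numbers, 110 members fell into 45 groups of 2 to 5, and 187 had no such neighbour. In 22 groups at least 2 members were tested, and in 15 of these the tested members had log2 differences of both signs. Of 33 pairs of tested members next to each other within a group, 15 had the same sign (45.5%), against 79 of 141 pairs further apart (56.0%). The rows of 3 groups, 10 members in all, were listed at 0 in all 4 libraries.

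The 5 neighbours TCONS_00024795 to TCONS_00024799 showed opposite differences, and their totals differed less. Above the parent in both P3 libraries were TCONS_00024796, TCONS_00024798 and TCONS_00024799. TCONS_00024797 had the opposite sign, with 15.8 and 23.7 FPKM in P3, against 27.7 and 39.6 FPKM in the parent. TCONS_00024795 also had a negative log2 difference, of -0.48, with overlapping lines. Summed, the 5 had 74.4 and 80.7 FPKM in P3, against 59.9 and 71.0 FPKM in the parent, a 1.18-fold difference of the means. Both P3 sums lay above both parental sums. TCONS_00024799 alone had a mean in P3 that was 3.76 times that in the parent, the highest ratio of the 5. A sum with less changed rows is closer to even by construction.

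In another set of neighbours, TCONS_00027564 to TCONS_00027566, the row of highest level differed between libraries. TCONS_00027564 had 44.4 and 46.8 FPKM in P3 and 52.8 FPKM in MDA-MB-231 replicate 2, but 0.000209 FPKM in MDA-MB-231 replicate 1. TCONS_00027566 had 24.8 FPKM in MDA-MB-231 replicate 1 and was listed near 0 in the other 3 libraries, at 1.75e-06 FPKM or less. The middle row, TCONS_00027565, had 0.129 and 3.04 FPKM in P3, against 2.47 and 1.14e-08 FPKM in the parent. The sum of the 3 rows was 44.5 and 49.8 FPKM in P3, against 27.2 and 52.8 FPKM in the parent. The log2 difference was 3.16 for TCONS_00027564 and -2.83 for TCONS_00027566, that of TCONS_00027566 being -5.05e-06 without MDA-MB-231 replicate 1, while the summed means differed 1.18-fold.

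The row of highest level also differed between libraries in TCONS_00019378 to TCONS_00019380. TCONS_00019379 carried most of the sum in 3 libraries, with 52.0 FPKM in MDA-MB-231-P3 replicate 2 and 64.5 and 66.0 FPKM in the parental libraries. In MDA-MB-231-P3 replicate 1 it had 28.5 FPKM and TCONS_00019380 had 84.8 FPKM. The sum was 115 and 52.1 FPKM in P3, against 78.8 and 68.0 FPKM in the parent, and the lines overlapped.

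**Figure D5:**
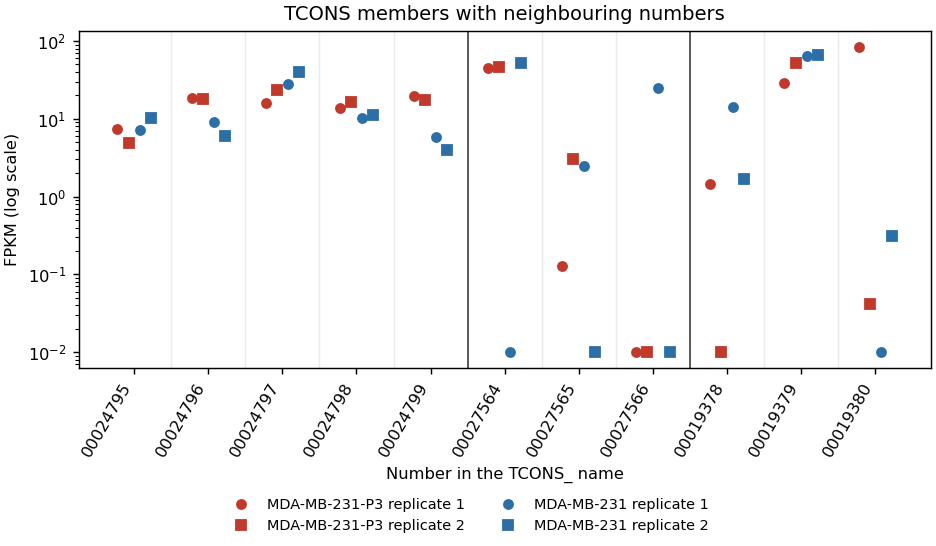
FPKM (log scale) in the 4 libraries of 3 sets of TCONS members with neighbouring numbers, divided by dark lines; red marks are MDA-MB-231-P3, blue marks MDA-MB-231, circles replicate 1 and squares replicate 2, and values below 0.01 are drawn at 0.01. In the middle set the blue circle is at the floor for TCONS_00027564 and at 24.8 FPKM for TCONS_00027566, where the other libraries are at the floor.

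In 2 other groups the neighbours had differences of the same sign. TCONS_00033857 and TCONS_00033859 were both above the parent in both P3 libraries, and their sum was 17.3 and 12.5 FPKM in P3, against 7.49 and 6.64 FPKM in the parent. All 3 of TCONS_00019849, TCONS_00019850 and TCONS_00019851 had negative differences, with sums of 49.3 and 42.4 FPKM in P3, against 78.8 and 67.4 FPKM in the parent. The group TCONS_00021139 to TCONS_00021142, which holds the most abundant member, had 1 positive and 3 negative differences. It summed to 2068 and 3787 FPKM in P3, against 2909 and 11738 FPKM in the parent, with overlap.

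With every group of neighbours summed to 1 value before the test, 143 values were tested in place of 175 and 0 passed. The lines were then separate for 53 values below the parent and 29 above it, and the median log2 difference was -0.19. Of all 8400 rows tested in that run, 1727 lay below and 2286 above, with a median of 0.09.

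On the log2(FPKM + 0.5) scale, the P3 libraries correlated across the 175 tested members with a Pearson's r of 0.847, and the parental libraries with 0.823. Between the lines it ran from 0.786 to 0.891, the highest value being that of MDA-MB-231-P3 replicate 2 with MDA-MB-231 replicate 2. For members, that 1 pair was thus more alike than either pair within a line. The other pairs between the lines had 0.786, 0.790 and 0.826, all below the P3 pair, the last close to the parental pair. Over all 8432 tested rows, r was 0.788 within P3, 0.766 within the parent and 0.708 to 0.735 between the lines. Rows are not independent replicates, and these values carry no p.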

How the data were processed

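Per the labels' protocols, the authors sequenced stranded libraries (dUTP method) of the mRNA fractions in read pairs, aligned them to hg19 with HISAT2 and normalized gene counts to FPKM. The submitters' processing notes also name StringTie. Neither versions nor the lncRNA annotation were given in the sources used here. The deposited FPKM values of the per-sample files equalled the series table in all 104786 rows of each library. Depth was unknown, so no counting interval was given.

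Rows with a mean of at least 0.5 FPKM over the 4 libraries entered a limma fit (version 3.58.1, R 4.3.3) of log2(FPKM + 0.5) (lmFit, eBayes with trend, two-sided, MDA-MB-231-P3 minus MDA-MB-231, no block), with Benjamini-Hochberg adjustment over all tested rows and a threshold of 0.05. This scale understates changes of low values. On simulated data, 200 of 8432 rows were changed, 50 each by 1, 2, 4 and 6 on the log2 scale. Of these, 0%, 22%, 88% and 94% were called, along with 10 unchanged rows. Each change raised 1 line above the measured mean of the row, so falls below that mean were not simulated. The simulated noise was normal on the log2 scale, with the spread of the fit. Rows dominated by 1 library were not simulated as such, so these shares need not hold for the measured rows. Single values per library were compared with exact permutation tests.

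The members and lists were chosen with earlier results of these data known. Named members were the 8 of highest mean, in each direction the 5 of smallest p and the 5 of largest difference without overlap between lines, and the 3 most even of at least 5 FPKM. Other named rows, and the grouping of neighbouring numbers, were picked with their values in view. The alternatives were a pseudocount of 0.1 or 1, a minimum mean of 1 FPKM or none, quantile normalization or median centring, eBayes without trend, a replicate block, and each library left out in turn. Tables were handled with Python 3.11.15, pandas 2.3.3 and numpy 2.4.6, and plots drawn with matplotlib 3.10.9. RefSeq synonyms came from the annotation of GRCh38.p14, and none of its coordinates were used.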

Additional observations from a re-analysis of the deposited data

How the results depend on the processing

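No member was called under any alternative run that kept all 4 libraries. With a minimum mean of 1 FPKM, 6 of all 4998 tested rows were called, and in the other such runs 0 rows were. Members with an unadjusted p under 0.05 numbered 12 to 25 without single libraries, against 29: 12 without MDA-MB-231-P3 replicate 1, 17 without its replicate 2 and 18 without MDA-MB-231 replicate 1, in fits with fewer degrees of freedom. The members' share at this limit lay above that of all tested rows with MDA-MB-231 replicate 2 left out. It lay below that share when any other single library was left out, so the excess of the main fit did not hold there. Members with separate lines numbered 127 to 151 of 175 when a line had 1 library, where separation is easier by construction. Among all 8432 tested rows they numbered 5874 to 6550. The median log2 difference of tested members was -0.18. It was -0.21 to -0.16 without single libraries, -0.27 after centring and -3.85e-11 without the filter, where 276 members, many near 0, were tested. The difference in the members' share of the library total was -0.80 percentage points, -1.98 to 0.37 without single libraries and 0.036 without the 3 most abundant members. Of 29 named members, 24 kept their sign throughout, though TCONS_00027566 was at -5.05e-06 without MDA-MB-231 replicate 1 and TCONS_00021140 at -0.055 without MDA-MB-231 replicate 2. The others, none called, ran without single libraries from -2.80 to 0.25 (TCONS_00020862), -0.092 to 0.41 (TCONS_00010231), -2.34 to 0.53 (TCONS_00021139), -0.47 to 0.88 (TCONS_00000002) and -0.12 to 0.0096 (TCONS_00000004, 0.044 with quantile normalization). What caused these shifts was not tested.

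The replicate numbers are shared by the lines in the labels, which do not say that they pair the samples. Deviations of same-numbered libraries correlated at 0.047 across tested rows. With the replicate number as a block, 0 members were called and the median difference was still -0.18. An unadjusted p under 0.05 was then reached by 23 of 175 members and by 941 of all 8432 tested rows. Summing neighbouring members, chosen after the data were examined, also gave 23, of 143 values, beside 1122 of all 8400 tested rows. Using the per-sample files gave no separate value, since they equalled the series table.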
